A study of Mus musculus with 8 samples.

Results

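Respiratory complex I is assembled from many proteins encoded in the nucleus, most of them named Nduf, and the dataset holds their mRNA levels in mouse osteoclast precursor (OCP) cells cultured with or without RANKL and with or without PRDX1. Members were taken as genes whose symbol starts with Nduf and whose mean over the 8 libraries was at least 0.5 FPKM (reads counted on a gene, scaled to the length of its transcript and to the total of the library). Of 25124 genes in the table, 48 carried an Nduf symbol and 45 reached this level. They comprised 7 core subunits, 9 accessory subunits of the matrix arm, 19 accessory subunits of the membrane arm, the acyl carrier protein Ndufab1, 8 assembly factors (Ndufaf1 to Ndufaf8), and Ndufa4, which carries the name but is now placed in complex IV. The lowest member was Ndufaf7 at a mean of 4.55 FPKM, and the highest gene below the minimum was Ndufb4c at 0.352 FPKM. Ndufa4l2, at a mean of 0.0546 FPKM, and Ndufa11b, with 0 reads in each of the 8 libraries against a floor of 3 reads per library, were below it too. Ndufb1 and the complex I subunits encoded in mitochondrial DNA were not analysed here.

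The study asked how extracellular PRDX1, a peroxiredoxin added as recombinant protein, acts on osteoclast differentiation driven by RANKL, the cytokine that turns macrophage-like precursors into bone-resorbing osteoclasts. OCP cells were bone marrow cells of mice that had adhered during culture in M-CSF, a growth factor of macrophages, and RNA was taken after 48 h in 4 groups of 2 libraries. All 4 groups received 30 ng/mL M-CSF. The group no PRDX1 + no RANKL received nothing else, PRDX1 + no RANKL received 200 nM PRDX1, no PRDX1 + RANKL received 100 ng/mL RANKL, and PRDX1 + RANKL received both at these doses. They are also called untreated (M-CSF only), PRDX1 alone, RANKL alone and both treatments. The PRDX1 carried a histidine tag and was made in bacteria, with endotoxin removed. The labels give C57BL/6 mice aged 6 to 8 weeks as the source, whereas the culture methods of the study name ICR mice. Nothing in the labels says whether the 2 libraries of a group came from separate animals, so the p-values measure the spread between these libraries, which may be technical.

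Complex I is the entry point of electrons from NADH into the respiratory chain of the inner mitochondrial membrane. Its matrix arm oxidizes NADH and passes the electrons along iron-sulfur clusters to ubiquinone, and its membrane arm pumps protons. Core subunits carry out this catalysis, accessory subunits surround and stabilize them, and assembly factors help to join modules of the complex but are not part of the finished enzyme. Osteoclasts are known as cells rich in mitochondria.

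The libraries held 24542570 to 41712934 reads on genes, and the 10 most abundant genes took 4.75% to 9.69% of them. All 8 macrophage markers passed the minimum, and their summed level was 15820 to 17620 FPKM in untreated cells, 16488 to 16957 with PRDX1 alone, 9867 to 10291 with RANKL alone, and 13405 to 13809 with both treatments. Lyz2 made up most of this sum in each library, and other members moved apart from it: with PRDX1 alone Mrc1 was at 104 and 109.5 FPKM against 248 and 216 in untreated cells, and Adgre1 at 484 and 527 against 385 and 358. That of 10 osteoclast markers was 44.8 to 45.4, 88.1 to 92.4, 1884 to 1987 and 251 to 259 FPKM in the same order. Acp5 took the largest part of this sum, and the markers did not all move with it: with PRDX1 alone Acp5 was at 53.9 and 53.5 FPKM against 24.2 and 23.1 in untreated cells, Nfatc1 at 7.64 and 7.76 against 9.54 and 11.1, and Itgb3 at 0.714 and 0.61 against 1.80 and 1.95. Marker sums of the other cell types were low. The 7 stromal markers summed to 7.89 to 10.9 FPKM without PRDX1 and 16.1 to 19.9 with it. The 6 neutrophil markers had 7.50 to 15.7 without PRDX1 and 33.2 to 41.8 with it, and the 5 dendritic cell markers 6.95 to 10.8 and 15.7 to 19.7. S100a8 and S100a9 carried the neutrophil sum, with Ly6g and Camp at no more than 0.621 FPKM in any library, and Itgax carried the dendritic cell sum, while Cd209a was at 0.454 and 0.749 FPKM with PRDX1 alone against 1.49 and 1.01 in untreated cells. The 4 B cell markers summed to at most 2.08 FPKM, the 4 T cell markers (Cd3e at 0) to at most 0.207 and the 5 erythroid markers (Hbb-bt among those at 0) to at most 0.132. What share of the changes in Nduf genes goes with these shifts was not tested, and in such bulk RNA fewer cells of one type cannot be told apart from less RNA per cell.

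Nduf mRNAs were most abundant in the cells given RANKL alone. The 36 structural subunits (core, accessory and Ndufab1) summed to 2419 ± 35.6 FPKM in untreated cells (SD, n = 2 libraries here and for each sum below), 2194 ± 30.3 with PRDX1 alone, 3266 ± 6.12 with RANKL alone and 2371 ± 8.34 with both treatments. The sums of the 8 assembly factors were far lower, at 83.6 ± 0.014, 72.7 ± 0.302, 106 ± 2.34 and 81.5 ± 1.11 FPKM in the same order. Both kinds of gene thus had their highest sum with RANKL alone, and the sum with both treatments lay near that with neither. Per gene and per length of transcript, structural subunits had a median of 70.9 FPKM (14.0 to 183) over all libraries and assembly factors one of 9.54 FPKM (4.55 to 22.8), so that all 8 assembly factors were measured on fewer reads per length than most subunits.

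**Figure D1:**
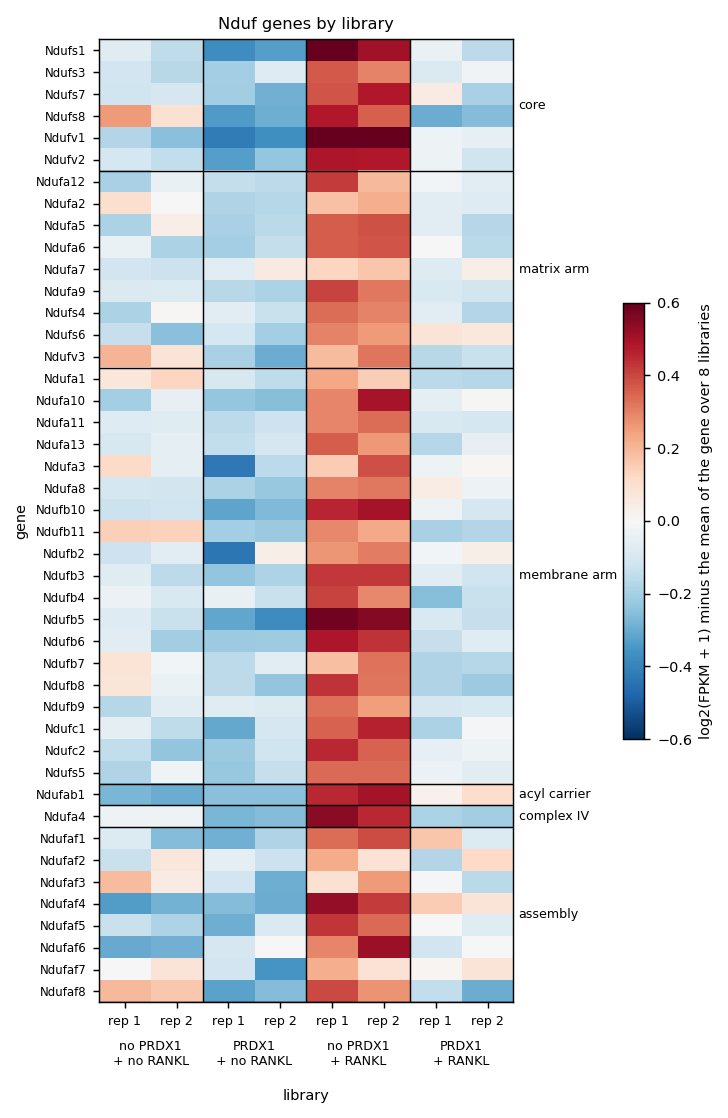
Level of 44 of the 45 Nduf genes (vertical axis, grouped by role) in the 8 libraries (horizontal axis, 2 replicates per group), as log2(FPKM + 1) minus the mean of the gene over the 8 libraries, with red above and blue below that mean. The 2 libraries with no PRDX1 + RANKL stand out as red in nearly every gene.

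The promoters of these genes were searched for short sequences recognized by factors that are known to act on genes of the respiratory chain, to show what the members share apart from their name. RefSeq windows of the GRCm38.p6 build, which has the coordinates of mm10, held 250 bases before and 50 bases after a transcription start and matched 40 of the 45 members with 42 windows. Letters were searched on both strands, and matches of different motifs shared no base. The letters AAGATGGC, the core of the YY1 motif, were in 8 of 42 member windows (19.05%), against 2.75% of all 32851 windows and 4.69% of the 11619 windows of genes tested. All 8 were on the coding strand, and their first base lay between base 11 and base 39 counted from 1 at the start of transcription. GCGCATGC, the core of the NRF1 motif, was in 5 windows (11.9%), against 2.71% of all windows and 5.34% of those of genes tested. For CCGGAAG, a core of motifs of the ETS family, the shares were 6 windows (14.29%), 8.86% and 18.61%, and for TCAAGGTCA, the element of ERR-alpha, 0 windows, 0.42% and 0.28%. Any of the 4 was in 18 windows (42.86%), against 13.68% of all windows and 26.37% of those of genes tested. These are matches of letters and say nothing of whether a factor was bound. The 30 bases around each YY1 match are shown 5′ to 3′ on the strand of the gene, with the match in capitals, because these letters were the ones most frequent among the members.
Ndufa3 (chr7:3617384-3617413, plus strand): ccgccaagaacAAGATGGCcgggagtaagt
Ndufa9 (chr6:126849097-126849126, minus strand): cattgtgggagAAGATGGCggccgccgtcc
Ndufaf8 (chr11:120098933-120098962, plus strand): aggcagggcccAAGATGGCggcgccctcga
Ndufb8 (chr19:44555393-44555422, minus strand): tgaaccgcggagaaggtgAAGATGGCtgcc
Ndufc1 (chr3:51408915-51408944, minus strand): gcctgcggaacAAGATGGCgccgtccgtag
Ndufs4 (chr13:114388045-114388074, minus strand): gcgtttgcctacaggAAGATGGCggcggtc
Ndufs6 (chr13:73328433-73328462, minus strand): aagggtcaccggcAAGATGGCggcggtgct
Ndufs7 (chr10:80249462-80249491, plus strand): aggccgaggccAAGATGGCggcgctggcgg

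The corresponding 30 bases around the NRF1 letters, where capitals that run past 8 letters mark overlapping matches on the 2 strands, are shown because they fall in 2 assembly factors and 3 accessory subunits. For Ndufaf4, which had further matches nearer its start, the one farthest upstream is given.
Ndufa11 (chr17:56717692-56717721, plus strand): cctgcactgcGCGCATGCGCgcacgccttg
Ndufa6 (chr15:82354356-82354385, minus strand): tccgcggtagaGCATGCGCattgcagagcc
Ndufa8 (chr2:36049328-36049357, minus strand): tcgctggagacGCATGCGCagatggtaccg
Ndufaf4 (chr4:24897959-24897988, plus strand): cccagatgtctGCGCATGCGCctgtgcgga
Ndufaf5 (chr2:140170652-140170681, plus strand): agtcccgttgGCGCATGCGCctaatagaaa

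Members with these letters differed in their response. Among the genes with the YY1 letters, the log2 fold change (of FPKM + 1, as throughout) with PRDX1 in the presence of RANKL ran from -0.58 in Ndufb8 to -0.21 in Ndufs6. Among those with the NRF1 letters it ran from -0.45 in Ndufa6 to -0.30 in Ndufa8.

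RANKL alone raised most complex I mRNAs. In the comparison of no PRDX1 + RANKL with no PRDX1 + no RANKL, all 45 log2 fold changes were above 0, and 38 of 45 genes were higher at a Benjamini-Hochberg adjusted p under 0.05 in limma, where 37% of all 11700 genes tested were. The median was 0.44, or 1.36-fold, beside 0.10 over all genes tested, and after correction for transcript length it was 0.29 beside 0.0245. Of the 45, 10 were also at least 1.5-fold higher, a share to be read against 11.8% of all genes. This count was 6 after quantile normalization (9.3% of all genes), 6 after upper quartile scaling (9.85%), 4 under cyclic loess normalization (9.15%) and 3 after correction for transcript length (9.27%), so that under the last 2 settings the share of Nduf genes was no higher than that of all genes. Ndufv1 and Ndufaf4 were past 1.5-fold under each of these settings and with each library left out. Both RANKL libraries lay above both control libraries in 43 of 45 genes, against 47.7% of all genes. The direction was above 0 in 39 to 45 of the genes across the settings and left-out libraries tried, with 39 after correction for transcript length, where Ndufa2 and Ndufb11, which had passed at 0.15 and 0.12, were at -0.041 and -0.044.

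The core subunits described here all rose with RANKL, by 0.25 to 0.86. Ndufv1, which binds NADH and FMN at the tip of the matrix arm, had 43.1 and 40.9 FPKM in untreated cells, 36.3 and 37.6 with PRDX1 alone, 75.0 and 79.1 with RANKL alone, and 47.7 and 47.1 with both treatments. Its 2 RANKL-only libraries lay far above the other 6, which did not exceed 47.7 FPKM. The change with RANKL alone was 0.86 (SE 0.052, adjusted p = 3.24e-07), the largest of the 45. Ndufv2, its partner with an iron-sulfur cluster, had 52.7 and 51.1 FPKM in untreated cells, 45.0 and 48.2 with PRDX1 alone, 79.985 and 79.8 with RANKL alone, and 55.7 and 52.3 with both treatments. It rose by 0.61 (SE 0.054, adjusted p = 5.12e-06). Ndufs1, the largest core subunit of the matrix arm, which carries several iron-sulfur clusters, had 43.6 and 41.1 FPKM in untreated cells, 35.1 and 36.3 with PRDX1 alone, 70.8 and 65.3 with RANKL alone, and 44.5 and 41.0 with both treatments. It rose by 0.67 (SE 0.062, adjusted p = 7.18e-06), and its libraries with RANKL alone again stood clear of all others. These 3 genes, which together form the module that takes up electrons from NADH, were each past 1.5-fold, which Ndufs1 no longer was under cyclic loess normalization and Ndufv2 under any of the 4 settings above.

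Ndufs3, Ndufs7 and Ndufs8 belong to the module that reduces ubiquinone. Ndufs7, which holds the last iron-sulfur cluster of the chain, had 66.6 and 67.5 FPKM in untreated cells, 62.4 and 59.0 with PRDX1 alone, 94.3 and 101 with RANKL alone, and 74.8 and 63.1 with both treatments. It rose by 0.54 (SE 0.075, adjusted p = 0.000148), and the libraries of the other 3 groups ranged from 59.0 to 74.8 FPKM. Ndufs3, a scaffold without a cofactor, had 48.9 and 47.2 FPKM in untreated cells, 46.0 and 50.2 with PRDX1 alone, 68.9 and 65.5 with RANKL alone, and 49.975 and 52.4 with both treatments, and rose by 0.47 (SE 0.058, adjusted p = 5.51e-05). Ndufs8, which carries a pair of iron-sulfur clusters, had 82.3 and 73.3 FPKM in untreated cells, 54.0 and 55.9 with PRDX1 alone, 96.3 and 88.5 with RANKL alone, and 55.7 and 57.2 with both treatments. It rose less than the other core subunits described here, by 0.25 (SE 0.064, adjusted p = 0.00773), and lost the call after correction for length and after cyclic loess normalization, and without no PRDX1 + no RANKL replicate 2 (0.16, adjusted p = 0.0721) or no PRDX1 + RANKL replicate 1 (0.19, adjusted p = 0.0504).

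Accessory subunits rose in 25 of 28 cases with RANKL alone, 8 of 9 in the matrix arm and 17 of 19 in the membrane arm, with medians of 0.43 and 0.41, against 37% of all genes tested that were higher. In the matrix arm Ndufv3 did not pass (0.12, SE 0.065, adjusted p = 0.15), and in the membrane arm Ndufa1 (0.09, SE 0.051, adjusted p = 0.151) and Ndufa3 (0.24, SE 0.099, adjusted p = 0.0585) did not. Past 1.5-fold were Ndufb5, Ndufb6 and Ndufb10, all of the distal membrane arm, and Ndufc2 of its proximal part, 4 of 28 against 11.8% of all genes. Under cyclic loess normalization and after correction for length none of these 4 was past it, and Ndufb5 alone was with quantile or upper quartile scaling. Ndufb5 had 66.6 and 63.9 FPKM in untreated cells, 56.5 and 53.9 with PRDX1 alone, 106 and 103 with RANKL alone, and 65.9 and 63.7 with both treatments. It rose by 0.67 (SE 0.049, adjusted p = 1.23e-06). Ndufb10 had 87.4 and 87.9 FPKM in untreated cells, 76.7 and 79.5 with PRDX1 alone, 132 and 136 with RANKL alone, and 93.7 and 89.3 with both treatments. Its change was 0.60 (SE 0.046, adjusted p = 1.91e-06). Both genes had their highest libraries with RANKL alone, and so had the next 2. Ndufb6 had 56.5 and 50.9 FPKM in untreated cells, 50.8 and 50.8 with PRDX1 alone, 83.1 and 80.1 with RANKL alone, and 53.5 and 56.1 with both treatments, and rose by 0.60 (SE 0.058, adjusted p = 1.05e-05). Ndufc2 had 65.4 and 61.4 FPKM in untreated cells, 62.0 and 66.7 with PRDX1 alone, 99.7 and 93.0 with RANKL alone, and 70.1 and 71.1 with both treatments, and rose by 0.60 (SE 0.057, adjusted p = 9.40e-06).

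Ndufab1 and Ndufa4 stand apart by their roles. Ndufab1, the acyl carrier protein of mitochondrial fatty acid synthesis that is also built into both arms, had 64.9 and 63.9 FPKM in untreated cells, 66.0 and 66.0 with PRDX1 alone, 108 and 112 with RANKL alone, and 80.2 and 85.0 with both treatments. It rose by 0.76 (SE 0.047, adjusted p = 3.91e-07) with RANKL alone, past 1.5-fold except after correction for length. The level of Ndufab1 was nearly equal in the 4 libraries without RANKL and highest in the 2 with RANKL alone. Ndufa4, the most abundant gene of the set, had 220.5 and 219.8 FPKM in untreated cells, 186 and 188 with PRDX1 alone, 328 and 308 with RANKL alone, and 197 and 194 with both treatments. It rose by 0.53 (SE 0.043, adjusted p = 2.88e-06), less than 1.5-fold.

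**Figure D2:**
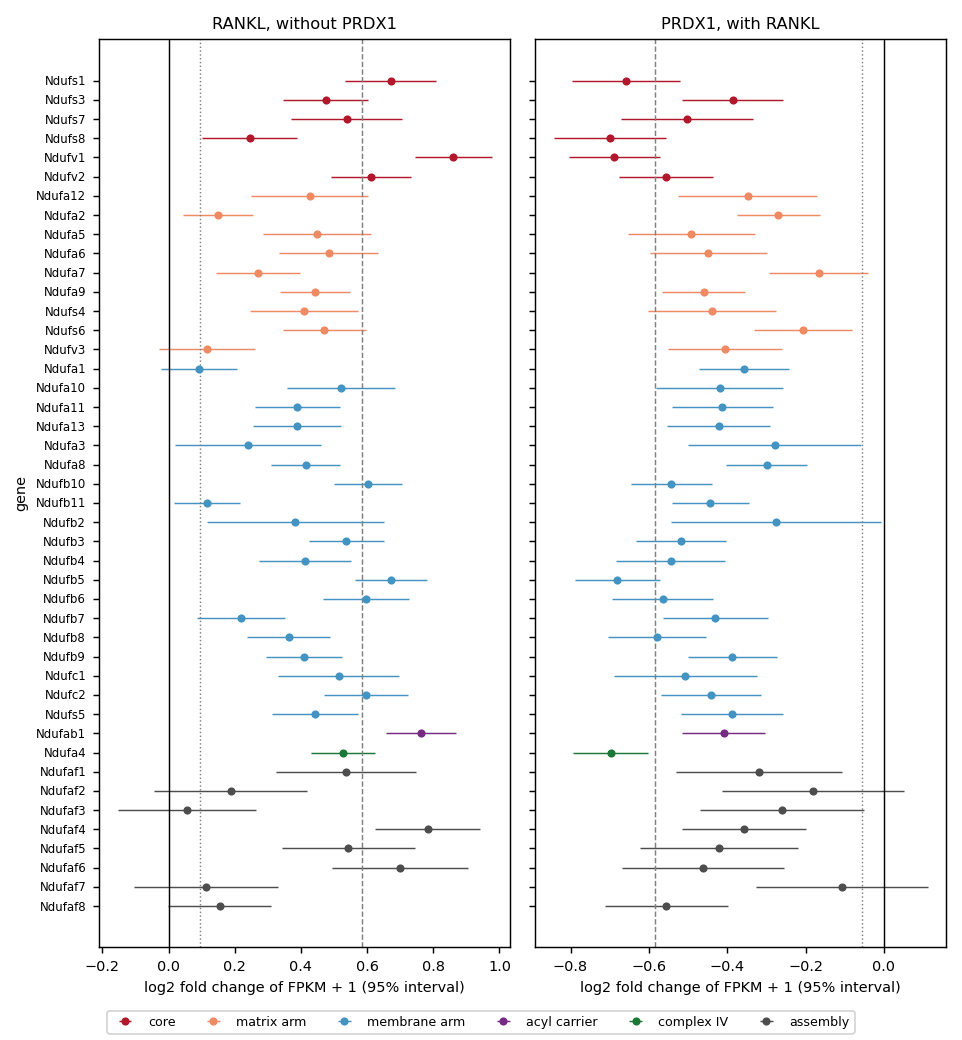
Log2 fold change of FPKM + 1 (horizontal axes) of 44 of the 45 genes (vertical axis, coloured by role) with RANKL without PRDX1 (left) and with PRDX1 in the presence of RANKL (right); points are limma estimates, bars 95% intervals, dashed lines 1.5-fold and dotted lines the median of all genes tested. All points on the left lie above 0 and all on the right below it.

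Adding PRDX1 to RANKL lowered nearly all of these mRNAs. In PRDX1 + RANKL against no PRDX1 + RANKL, all 45 log2 fold changes were below 0, as they were under each alternative setting and with each library left out. At an adjusted p under 0.05 in limma, 42 of 45 were lower, against 25.6% of all genes tested, and the libraries of the groups did not overlap in 44 of 45, against 43.1%. The median was -0.43, or 0.742-fold, beside -0.06 over all genes tested, and the range was -0.70 to -0.11. The decreases were moderate: 5 genes were lower by at least 1.5-fold, against 4.17% of all genes. On mm10 these were Ndufs8 (chr19:3908863-3912774), Ndufv1 (chr19:4007499-4012755), Ndufs1 (chr1:63143592-63176822), Ndufb5 (chr3:32737063-32751559) and Ndufa4 (chr6:11900372-11907450). Under cyclic loess normalization 0 were past 1.5-fold (3.32% of all genes) and after correction for transcript length 3 were (3.56%), while 10 were past it without PRDX1 + RANKL replicate 1 (4.42%). This comparison and the previous one use the same 2 libraries with RANKL alone, with opposite sign, and each of the 4 groups enters 2 or 3 of the 5 pairwise comparisons.

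The core subunits described here all fell, with log2 fold changes of -0.70 to -0.39. The medians were -0.41 and -0.43 in the accessory subunits of the matrix and membrane arms and -0.34 in the assembly factors; no test of these differences was made. In Ndufs8 both libraries with PRDX1 + RANKL, at 55.7 and 57.2 FPKM, lay below those of the untreated cells, and the change was -0.70 (SE 0.064, adjusted p = 1.72e-05). Ndufv1 changed by -0.69 (SE 0.052, adjusted p = 4.32e-06) and Ndufs1 by -0.66 (SE 0.062, adjusted p = 1.93e-05). With both treatments Ndufv1 was at 47.7 and 47.1 FPKM and Ndufs1 at 44.5 and 41.0 FPKM, near the untreated libraries given above. Ndufv2 changed by -0.56 (SE 0.054, adjusted p = 2.39e-05) and Ndufs7 by -0.50 (SE 0.075, adjusted p = 0.000462). Ndufs3 had the smallest change among them, -0.39 (SE 0.058, adjusted p = 0.000458).

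All 9 accessory subunits of the matrix arm fell, and 18 of 19 of the membrane arm, against 25.6% of all genes. Of these 28, Ndufb5 was the one past 1.5-fold, against 4.17% of all genes, at -0.68 (SE 0.049, adjusted p = 3.00e-06). Next came Ndufb8, the most abundant accessory subunit, with 189.9 and 176 FPKM in untreated cells, 162 and 153 with PRDX1 alone, 245 and 226 with RANKL alone, and 159 and 155 with both treatments. Its change was -0.58 (SE 0.056, adjusted p = 2.39e-05), and its 2 libraries with both treatments lay close to those with PRDX1 alone. Ndufb6 (-0.57, SE 0.058, adjusted p = 3.40e-05), Ndufb4 (-0.54, SE 0.062, adjusted p = 7.56e-05) and Ndufb10 (-0.54, SE 0.046, adjusted p = 1.01e-05) followed. Ndufa11, a membrane-arm subunit with the lowest mean level of the accessory subunits, had 13.1 and 13.2 FPKM in untreated cells, 12.4 and 12.7 with PRDX1 alone, 17.2 and 17.8 with RANKL alone, and 13.0 and 12.8 with both treatments, and changed by -0.41 (SE 0.058, adjusted p = 0.000294). Ndufb2, also low, had 22.8 and 23.8 FPKM in untreated cells, 18.2 and 25.7 with PRDX1 alone, 30.2 and 31.2 with RANKL alone, and 24.7 and 25.7 with both treatments. Its 2 libraries with PRDX1 alone were far apart, and its change with PRDX1 in the presence of RANKL, -0.28 (SE 0.120, adjusted p = 0.0906), did not pass; the 95% interval was -0.54 to -0.01.

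The smallest decreases among accessory subunits were in the matrix arm. Ndufa7 had 73.1 and 72.2 FPKM in untreated cells, 75.6 and 82.3 with PRDX1 alone, 86.7 and 89.0 with RANKL alone, and 75.1 and 81.3 with both treatments, with a change of -0.17 (SE 0.057, adjusted p = 0.0384) by PRDX1 in the presence of RANKL. Ndufs6, a zinc-binding subunit, had 56.1 and 51.9 FPKM in untreated cells, 57.5 and 53.6 with PRDX1 alone, 76.4 and 74.1 with RANKL alone, and 65.5 and 64.6 with both treatments. It changed by -0.21 (SE 0.056, adjusted p = 0.0133) and remained above the untreated libraries. Both calls were lost under several other normalizations and with libraries left out, such as PRDX1 + RANKL replicate 1, without which Ndufa7 was at -0.11 (adjusted p = 0.269) and Ndufs6 at -0.22 (adjusted p = 0.0563). Ndufc2 fell by 0.44 (SE 0.057, adjusted p = 0.000169), Ndufab1 fell by 0.41 (SE 0.047, adjusted p = 8.21e-05), and Ndufa4 fell by 0.70 (SE 0.043, adjusted p = 1.13e-06). For Ndufa4 the libraries with both treatments were below the untreated ones, whereas for Ndufab1 they were above them.

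The assembly factors varied among themselves. Of the 8, 6 fell with PRDX1 in the presence of RANKL, against 25.6% of all genes, and 0 did so past 1.5-fold, against 4.17%. With RANKL alone 4 of 8 rose, a share near the 37% of all genes, and Ndufaf4 and Ndufaf6 were past 1.5-fold (Ndufaf6 not after correction for length), against 11.8%. Ndufaf1, which helps to build the membrane arm, had 10.4 and 9.03 FPKM in untreated cells, 8.86 and 9.61 with PRDX1 alone, 14.2 and 14.8 with RANKL alone, and 12.5 and 10.4 with both treatments. It rose with RANKL by 0.54 (SE 0.095, adjusted p = 0.000727). Its change with PRDX1 was -0.32 (SE 0.095, adjusted p = 0.0212), a call that was lost with no filter on low values, under cyclic loess normalization, without no PRDX1 + RANKL replicate 2 (-0.29, adjusted p = 0.0816) and without PRDX1 + RANKL replicate 2 (-0.20, adjusted p = 0.19). Ndufaf3 and Ndufaf4 act together on the ubiquinone module. Ndufaf4 had 6.62 and 6.89 FPKM in untreated cells, 7.03 and 6.82 with PRDX1 alone, 12.8 and 11.9 with RANKL alone, and 9.69 and 9.13 with both treatments, and rose with RANKL by 0.78 (SE 0.071, adjusted p = 6.34e-06), the largest change of any assembly factor. With PRDX1 added it fell by 0.36 (SE 0.071, adjusted p = 0.00253) and stayed above the untreated libraries.

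Its partner Ndufaf3 had 11.7 and 10.5 FPKM in untreated cells, 9.29 and 8.10 with PRDX1 alone, 10.9 and 12.3 with RANKL alone, and 10.1 and 8.97 with both treatments. For Ndufaf3 the groups with and without RANKL overlapped (0.06, SE 0.094, adjusted p = 0.633), and the change with PRDX1, -0.26 (SE 0.094, adjusted p = 0.0483), was lost under other settings, at -0.18 without no PRDX1 + RANKL replicate 2 (adjusted p = 0.224) and without PRDX1 + RANKL replicate 2 (adjusted p = 0.271). Ndufaf5, an enzyme that hydroxylates an arginine of Ndufs7, had 4.16 and 3.97 FPKM in untreated cells, 3.61 and 4.32 with PRDX1 alone, 6.61 and 6.16 with RANKL alone, and 4.64 and 4.38 with both treatments. It rose by 0.54 (SE 0.090, adjusted p = 0.000479) and fell by 0.42 (SE 0.090, adjusted p = 0.00396). Ndufaf8, which stabilizes Ndufaf5, had 25.8 and 25.2 FPKM in untreated cells, 17.7 and 18.5 with PRDX1 alone, 29.8 and 27.2 with RANKL alone, and 20.1 and 18.0 with both treatments. It did not pass with RANKL alone (0.15, SE 0.070, adjusted p = 0.082) but had the largest decrease of an assembly factor with PRDX1 added, -0.56 (SE 0.070, adjusted p = 0.000145). Both members of this pair were thus lower with PRDX1 in the presence of RANKL.

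Ndufaf6, needed early in assembly, had 4.16 and 4.22 FPKM in untreated cells, 4.94 and 5.37 with PRDX1 alone, 6.81 and 8.11 with RANKL alone, and 4.89 and 5.37 with both treatments. It rose with RANKL by 0.70 (SE 0.092, adjusted p = 9.74e-05) and fell with PRDX1 by 0.46 (SE 0.092, adjusted p = 0.00269). Ndufaf2, a factor of late assembly related in sequence to Ndufa12, had 16.3 and 19.0 FPKM in untreated cells, 17.4 and 16.4 with PRDX1 alone, 21.2 and 19.2 with RANKL alone, and 15.8 and 19.7 with both treatments. Ndufaf7, a methyltransferase, had 4.51 and 4.83 FPKM in untreated cells, 4.09 and 3.31 with PRDX1 alone, 5.41 and 4.86 with RANKL alone, and 4.57 and 4.82 with both treatments. These last 2 passed neither test: with RANKL alone they had 0.19 (SE 0.104, adjusted p = 0.146) and 0.11 (SE 0.098, adjusted p = 0.342), and with PRDX1 added -0.18 (SE 0.104, adjusted p = 0.19) and -0.11 (SE 0.098, adjusted p = 0.412). Their 95% intervals with PRDX1 added ran from -0.41 to 0.05 and from -0.33 to 0.11. A pseudocount of 1 shrinks the changes of such low genes more than those of the subunits.

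**Figure D3:**
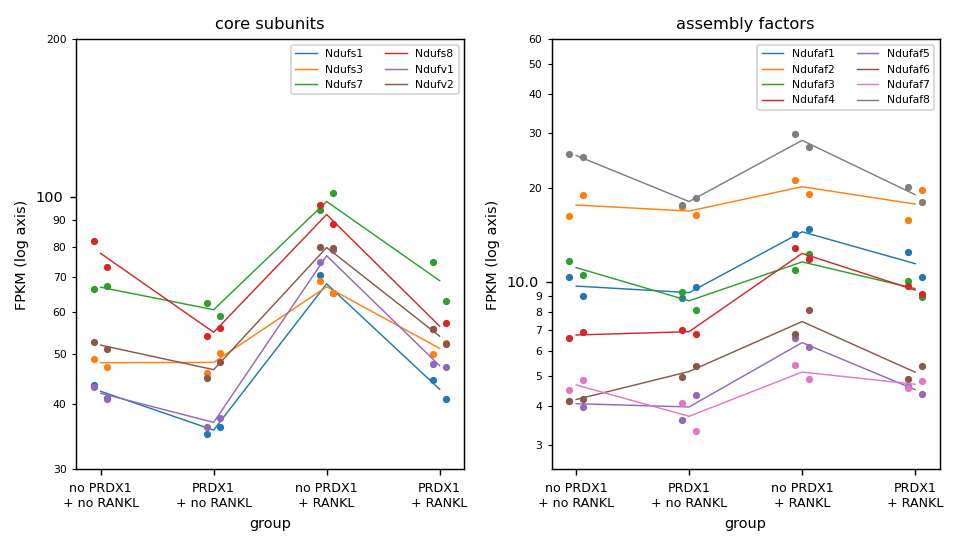
FPKM on a log axis of 6 core subunits (left) and the 8 assembly factors (right) in the 4 groups; points are single libraries and lines join group means of 2 libraries. Each core subunit shown peaks with no PRDX1 + RANKL, while the line of Ndufaf2 is nearly flat.

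PRDX1 lowered some of these genes without RANKL as well. In PRDX1 + no RANKL against no PRDX1 + no RANKL, 15 of 45 genes were lower, against 17.6% of all genes tested, and 0 were higher, against 12.2%. Past 1.5-fold in either direction there were 0, against 5.79% of all genes by limma, and 0 against 8.58% by voom on the recovered reads. An unadjusted p under 0.05 in limma was found for 19 of the 45, against 39.8% of all genes. The median was -0.10, beside -0.04 over all genes tested, and -0.025 beside 0.0015 under cyclic loess normalization. The lowest value was that of Ndufs8 (-0.49, SE 0.064, adjusted p = 0.000358), whose libraries were at 54.0 and 55.9 FPKM against 82.3 and 73.3. Ndufaf8 followed with -0.47 (SE 0.070, adjusted p = 0.000789), then Ndufv3, a small subunit at the NADH-oxidizing tip, with -0.38 (SE 0.065, adjusted p = 0.00169), and Ndufb11 with -0.35 (SE 0.044, adjusted p = 0.000273). Those lower included the core subunits Ndufs1, Ndufs8 and Ndufv1 and the assembly factors Ndufaf3 and Ndufaf8. Ndufs3 had 0.00, with a 95% interval of -0.13 to 0.13, and Ndufaf6 had the highest value, 0.24 (SE 0.092, adjusted p = 0.0733). The calls of Ndufs1, Ndufv1 and Ndufaf3 were lost under cyclic loess normalization, and without no PRDX1 + no RANKL replicate 1 (adjusted p = 0.105, 0.156 and 0.166). Under cyclic loess normalization 9 genes passed the adjusted p in either direction, where 12.2% of all genes were lower and 14.6% higher. The calls of Ndufa1, Ndufa2, Ndufa3, Ndufb8 and Ndufb10 were lost under it too.

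In the presence of PRDX1, the share of Nduf genes higher with RANKL was near that of all genes. In PRDX1 + RANKL against PRDX1 + no RANKL, 14 of 45 genes (31.1%) were higher, against 26.2% of all genes tested, and 0 were lower, against 14.4%. The median was 0.11, beside 0.07 over all genes tested. It was 0.054 beside 0.0234 under upper quartile scaling and 0.035 beside 0.0044 under cyclic loess normalization. Past 1.5-fold in either direction there were 0 against 8.5% of all genes by limma, and 0 against 12% by voom, and 19 of the 45 had an unadjusted p under 0.05 in limma, against 49.2%. The largest increases were those of Ndufaf4 (0.39, SE 0.071, adjusted p = 0.00166), Ndufv1 (0.35, SE 0.052, adjusted p = 0.000502) and Ndufab1 (0.32, SE 0.047, adjusted p = 0.000528). The count of 14 was 6 without PRDX1 + RANKL replicate 1 (17.2% of all genes), 9 without PRDX1 + no RANKL replicate 1 (18.1%) and 8 under cyclic loess normalization (17.8%), shares of the Nduf genes that were near or below those of all genes.

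With both treatments, levels were close to those of untreated cells. Against no PRDX1 + no RANKL, 4 genes were higher (24.7% of all genes tested) and 8 lower (19.5%), and the median was 0.01 (-0.03 after correction for length). For 44 of 45 genes the whole 95% interval of the difference lay within 1.5-fold in either direction. This held for 8784 of the 11700 genes tested too. The exception among the Nduf genes was Ndufs8 (-0.45, SE 0.064, adjusted p = 0.000285, interval -0.60 to -0.31). Those higher were Ndufaf4 (0.43, SE 0.071, adjusted p = 0.000826), Ndufab1 (0.35, SE 0.047, adjusted p = 0.000191), Ndufs6 (0.26, SE 0.056, adjusted p = 0.00342) and Ndufv1 (0.17, SE 0.052, adjusted p = 0.0223). The lower ones besides Ndufs8 were Ndufaf8, Ndufb11, Ndufv3, Ndufa1, Ndufb8, Ndufb7 and Ndufa4, from -0.40 to -0.17. The call of Ndufv1 was lost after correction for length (0.11, adjusted p = 0.115) and without no PRDX1 + no RANKL replicate 2 (0.14, adjusted p = 0.132), and those of Ndufb8, Ndufb7 and Ndufa4 without PRDX1 + RANKL replicate 2 (adjusted p = 0.0715, 0.0697 and 0.0668). Past 1.5-fold in either direction there were 0, against 12.8% of all genes by limma and 17% by voom, and 17 of the 45 had an unadjusted p under 0.05 in limma, against 51.3%.

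The effect of PRDX1 depended on RANKL for many of these genes. The interaction, which is the log2 fold change by PRDX1 with RANKL minus that without, was below 0 for 42 of 45 genes (36 after correction for length), with a median of -0.37 (-0.22 after correction for length) beside -0.01 over all genes tested. It passed an adjusted p under 0.05 in limma for 29 genes, against 12% of all genes tested, all 29 below 0. They included 6 of 9 and 13 of 19 accessory subunits of the matrix and membrane arms, Ndufab1, Ndufa4, and 2 of 8 assembly factors, Ndufaf4 and Ndufaf6. The call of Ndufaf4 was lost with 1 library left out, for instance PRDX1 + RANKL replicate 2 (-0.35, adjusted p = 0.0898). Ndufaf6 was the one past 1.5-fold (4.35% of all genes tested), at -0.71 (SE 0.131, adjusted p = 0.0036). PRDX1 took it from 4.16 and 4.22 to 4.94 and 5.37 FPKM without RANKL and from 6.81 and 8.11 to 4.89 and 5.37 with RANKL. Ndufb4, Ndufv1 and Ndufb6 followed with -0.52, -0.51 and -0.49.

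The interaction of Ndufs8 did not pass, at -0.21 (SE 0.091, adjusted p = 0.136). PRDX1 lowered it both with and without RANKL. Ndufaf8 (-0.09, SE 0.099, adjusted p = 0.599), Ndufv3 (-0.02, SE 0.092, adjusted p = 0.898) and Ndufb11 (-0.09, SE 0.063, adjusted p = 0.364) were likewise lower with PRDX1 in both settings, with interactions that did not pass. The 95% interval of the interaction of Ndufs8 was -0.41 to -0.004.

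**Figure D4:**
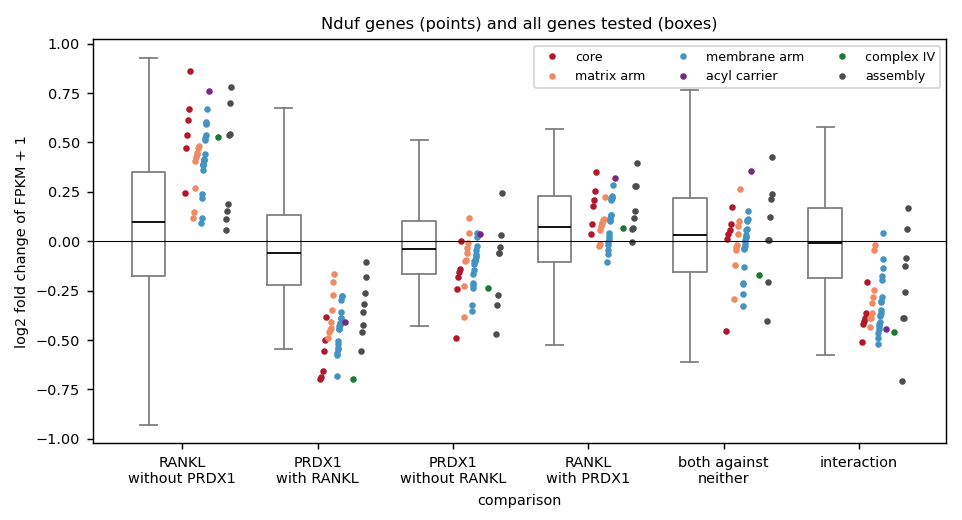
Log2 fold change of FPKM + 1 (vertical axis) in each of the 6 comparisons (horizontal axis) for 44 of the 45 Nduf genes (points, coloured by role) and all 11700 genes tested (boxes: quartiles and median, whiskers the 5th to 95th percentile). Points lie high with RANKL without PRDX1, low with PRDX1 with RANKL, and around 0 for both treatments against neither.

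Other parts of the respiratory chain are given for comparison, from lists of genes by complex. With PRDX1 in the presence of RANKL, 7 of 11 assembly factors of complex I with other names were lower at an adjusted p under 0.05, with a median of -0.29, close to the -0.34 of the Ndufaf genes. For complex II 5 of 8 genes were lower (median -0.56), for complex III 13 of 14 (-0.54), for complex IV 17 of 24 (-0.35) and for ATP synthase 17 of 18 (-0.52), beside 42 of 45 (-0.43) for the Nduf genes and 25.6% of all genes tested. With RANKL alone the numbers higher were 7 of 11, 6 of 8, 12 of 14, 22 of 24 and 17 of 18 in the same order, against 37% of all genes tested. Among the 11 assembly factors with other names, Dmac1, singled out after its values were seen, was instead lower with RANKL alone, at -0.72 and past 1.5-fold. The complexes were not tested against each other.

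Features of the counting touch some members. Nduf transcripts are short, with a median of 745 bases against 2659 for all genes tested, and 29 of 45 were at most 1000 bases long, as were 11.0% of all genes tested. Those short genes as a class had a median of 0.24 with RANKL alone and -0.20 with PRDX1 in the presence of RANKL. After correction for length the medians of the Nduf genes were 0.29 and -0.34. Reads were counted without regard to strand, so that a read from an overlapping gene cannot be told apart. Exons of another gene covered over 10% of the exonic bases of Ndufb6 (39% by Smim27), Ndufa13 (Tssk6), Ndufb9, Ndufb11, Ndufa2 and Ndufb5. For 8 members a processed pseudogene matched at 95% identity or more over at least 200 bases (Ndufa12, Ndufab1, Ndufb11, Ndufb3, Ndufb4, Ndufs3, Ndufs5 and Ndufs6). The one of Ndufs5, BC002163, named here for this likeness alone, had its own mean of 87.0 FPKM, so the value of Ndufs5 is uncertain.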

How the data were processed

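RNA of OCP cells was sequenced as paired reads in 8 libraries, aligned to mm10 with HISAT2 according to the labels, and counted on exons of RefSeq genes with HOMER, on both strands and with 1 transcript kept per gene. The authors deposited FPKM, the reads of a gene divided by its transcript length and by the library total, for 25124 genes, and 0 columns of other samples were present. Nothing was pooled. Library totals recovered from the FPKM values were 27284461 to 46171513 reads, and 100.0% of the FPKM values checked gave whole reads within 0.1 of a read. Floors cover counting error only and limit the precision of low genes.

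All 11700 genes whose FPKM averaged 0.5 or more were fitted together in limma 3.58.1 (R 4.3.3) on log2(FPKM + 1), with the 4 groups as the only terms, the trend of variance on level, 4 residual degrees of freedom and no replicate block. Fold changes refer to FPKM + 1, so that those of low genes come out too small. P-values were two-sided and adjusted over all genes tested by Benjamini-Hochberg. The calls were an adjusted p under 0.05, and the same with a fold change of at least 1.5, the limits of the study. The steps were tested on simulated data.

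The members and lists were chosen with earlier results of these data known. Values in every library are given for the core subunits, the assembly factors, accessory genes called in any comparison (up to 10 by their change with PRDX1 in the presence of RANKL), the 2 accessory subunits with the highest, the 2 with the lowest mean level and the 2 with the smallest such change. A gene that met this rule is not reported here. Ndufa4 and Ndufab1 were called or named under this rule, and the others are given by range and count. Genes outside this rule that are named singly, such as Ndufb4, Ndufv3 and Ndufb11, were chosen after their values were seen. Exon overlaps and near-identical transcripts were taken from GENCODE vM21 with blastn 2.17.0, and promoters from RefSeq. Alternatives were a pseudocount of 0.1, no filter on low values, quantile, upper quartile and cyclic loess normalization, a correction for transcript length, a replicate block with and without it, limma's voom on the recovered reads, and leaving out each library.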

Additional observations from a re-analysis of the deposited data

Results flagged for a closer look

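The effect of PRDX1 with RANKL differed from its effect without RANKL in 29 of 45 Nduf genes, by the interaction term in limma at a Benjamini-Hochberg adjusted p under 0.05, where 12% of all genes tested had such an interaction below 0. Among the core subunits the interaction on the log2 scale was -0.42 in Ndufs1, -0.39 in Ndufs3, -0.36 in Ndufs7, -0.51 in Ndufv1 and -0.40 in Ndufv2. Among accessory subunits it was -0.28 in Ndufa7, -0.25 in Ndufs6, -0.35 in Ndufa11, -0.38 in Ndufb10, -0.44 in Ndufb5, -0.49 in Ndufb6, -0.37 in Ndufb8 and -0.46 in Ndufc2. It was -0.44 in Ndufab1, -0.46 in Ndufa4, -0.39 in Ndufaf4 and -0.71 in Ndufaf6. The interactions of Ndufs4, Ndufs5, Ndufs6, Ndufs7, Ndufa5 and Ndufa6 did not pass under at least 1 alternative setting or with 1 library left out. The same held for Ndufa7, Ndufa11, Ndufb7, Ndufb8, Ndufc1 and Ndufaf4.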

How the results depend on the processing

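Among genes that had passed the test, Ndufa2 and Ndufb11 turned direction with RANKL alone after correction for length, with or without the replicate block, to -0.041 (adjusted p = 0.444 and 0.415 in limma) and -0.044 (adjusted p = 0.42 and 0.389); no other gene that had passed turned in any of the 6 comparisons. Of the counts and medians over the genes, 129 under other settings moved by less than 1.5 times or by less than the spread between replicates, as did 136 with 1 library left out, where 8 did not, against 33 under other settings. Of the values of single named genes, 750 under other settings and 660 with 1 library left out kept their side of the threshold, and 78 and 76 did not. The genes past 1.5-fold with PRDX1 in the presence of RANKL, 5 in the report, were 0 under cyclic loess normalization and 3 after correction for length, with or without the replicate block; with 1 library left out they were 5 to 10 (9 without no PRDX1 + RANKL replicate 2, 10 and 8 without PRDX1 + RANKL replicates 1 and 2). With RANKL alone, 10 became 6 with quantile normalization, 6 with upper quartile scaling, 4 under cyclic loess and 3 after correction for length, with or without the block. Under quantile normalization, upper quartile scaling, cyclic loess and length correction, in this order, the median log2 fold change was -0.37, -0.38, -0.32 and -0.34 with PRDX1 in the presence of RANKL, 0.38, 0.38, 0.33 and 0.29 with RANKL alone, and 0.069, 0.054, 0.035 and 0.074 with RANKL in the presence of PRDX1. It was -0.065 under upper quartile scaling and -0.025 under cyclic loess with PRDX1 in the absence of RANKL (-0.14 to -0.10 with 1 library left out), and -0.031 after length correction, with or without the block, with both treatments against neither. The median of the interaction was -0.33 under quantile normalization, -0.33 under cyclic loess and -0.22 after length correction (-0.36 to -0.32 with 1 library left out). With PRDX1 in the absence of RANKL, 15 genes past the adjusted p became 9 under cyclic loess and 9 to 18 with 1 library left out; with RANKL in the presence of PRDX1, 14 became 8 and 6 to 14. The causes were not tested. The numbers of the replicates are shared by the 4 groups. Deviations of libraries with the same number correlated at 0.00847 to 0.0965 between groups, low values that were above 0 for each pair of groups. The header of the table lists run numbers that differ from those of the labels; these were not matched to libraries, and a pairing by them was not tested. With the replicate block, 42 genes passed the adjusted p with PRDX1 in the presence of RANKL, 38 with RANKL alone and 31 rather than 29 in the interaction. After correction for length without the block, the interactions of Ndufa5, Ndufa6, Ndufa7, Ndufb7, Ndufb8, Ndufc1, Ndufs5, Ndufs6 and Ndufs7 no longer passed. With 2 libraries per group, a lone library left in a group was assumed to vary like the others, and transcripts of Ndufa4l2, Ndufa11b and Ndufb4c were too few to compare.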
